A study of Mus musculus with 16 samples.

Results

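Enzymes that conjugate glutathione to toxic compounds, break down peroxides and keep protein thiols reduced were followed through RNA sequencing of mouse thymocytes. The set holds 43 genes chosen by symbol and known role: glutathione transferases, peroxiredoxins, the thioredoxin system, glutathione peroxidases, superoxide dismutases with catalase, glutaredoxins, and the genes that supply reducing power or sense oxidants. Each was found by the Ensembl identifier that carries its symbol, among 55335 gene identifiers in 10 libraries and 54532 in the other 6. The cells are double-positive (DP) thymocytes, cells with both CD4 and CD8 on the surface whose new T cell receptors are being tested, sorted from thymus by flow cytometry. The 16 libraries form 5 groups: 3 young WT, 4 old WT, 3 labelled young with METTL3 knocked out (KO), and 2 groups of 3, WT and METTL3 KO, whose labels give no age. METTL3 is the methyltransferase that writes N6-methyladenosine on RNA, a mark linked to RNA stability and translation. The sources used here do not give the age in weeks, strain, sex, the way Mettl3 was deleted or whether animals were pooled. No label says that replicates came from separate animals. By Xist and Y-linked genes, young WT, old WT, the libraries labelled young KO and KO without an age each held libraries of both sexes. These groups thus did not each come from a single animal. WT without an age read as male throughout. The p-values measure spread among libraries, and libraries of the same sex may still be technical replicates.

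Reactive oxygen leaves mitochondria and oxidases mainly as superoxide, which superoxide dismutases turn into hydrogen peroxide. Catalase, glutathione peroxidases and peroxiredoxins then remove the peroxide, and glutathione reductase and thioredoxin reductases restore their partners with electrons from NADPH. Glutathione transferases attach glutathione to reactive compounds such as lipid aldehydes. The sensor KEAP1 holds the transcription factor NRF2 at a low level until oxidants modify it, and many enzymes of this set are known NRF2 targets in other tissues. In the thymus, low catalase in stromal cells has been linked to age-related shrinkage, and thymocytes themselves die readily under oxidative stress.

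Gene counts per library summed to 9781368 to 10307780 with an age, 15927134 to 16167074 in WT without an age and 10575795 to 13740694 in KO without an age. Between 47.5% and 51.2% of counted entries lay outside genes in the libraries with an age, against 7.23% to 7.60% in WT and 11.8% to 15.0% in KO without an age, so the sets were never compared in level by a test. Mettl3 had 59.5 to 66.0 CPM (a gene's share of its library's counts, scaled by TMM) in young WT and 62.1 to 64.5 in the libraries labelled young KO (log2 difference 0.00 ± 0.08, SE, adjusted p = 1 by edgeR's quasi-likelihood test). The Mettl3 count thus does not bear out the label young KO. Which exons were removed is not given, and a count over the whole gene need not fall when only some exons are lost. Without an age, Mettl3 was at 45.1 to 54.5 CPM in WT and 27.0 to 38.6 in KO (log2 -0.58 ± 0.18, adjusted p = 0.0189). Summed DP markers lay between 14194 and 22574 CPM in all groups, the KO libraries without an age being the lowest. In bulk RNA, fewer cells of a type and less RNA per cell cannot be told apart. Among the KO libraries without an age, replicate 3 stood apart for many of these genes. Their sum over all 43 was 2273 CPM there, against 1752 and 1593 in replicates 1 and 2 and 1894 to 2164 in WT. By Xist and Y-linked genes replicates 1 and 2 were female and replicate 3 and the 3 WT libraries male, so sex and replicate cannot be told apart within that group.

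The thioredoxin system gave the most abundant transcripts per length. In young WT, Txnip stood at 192 ± 28.0 CPM per kb of exon (SD, n = 3). TXNIP is an arrestin-fold protein that binds thioredoxin and restrains glucose uptake. Txn1, cytosolic thioredoxin itself, stood at 157 ± 4.98 CPM per kb. The following 5 were Prdx1 at 50.5 ± 7.65, Cat at 48.5 ± 4.06, Prdx2 at 45.7 ± 3.23, Prdx5 at 41.6 ± 1.93 and Gpx1 at 39.4 ± 1.72 CPM per kb. Each of these 5 overlapped its neighbours in that order over the 3 libraries. They code for cytosolic peroxiredoxins (Prdx1, Prdx2), a peroxiredoxin of several compartments (Prdx5), catalase of the peroxisome and the main cytosolic glutathione peroxidase. In WT without an age the same 7 genes were the highest, with Txn1 at 191 ± 48.3, Txnip at 110 ± 14.5 and Gpx1 at 62.0 ± 4.09 CPM per kb.

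The glutathione transferases were lower. Gstp1, of the pi class, led the cytosolic transferases with 24.3 ± 2.02 CPM per kb in young WT, and Gstt2 of the theta class followed at 5.49 ± 0.490. Mgst2, a microsomal enzyme that can also make leukotriene C, stood at 14.0 ± 0.895 CPM per kb. A further 12 of the 43 genes did not pass the filter on low counts in the libraries with an age: Gstm2, Gstm5, Gstp2, Gstt1, Gstt3, Mgst1, Txnrd3, Gpx7, Gpx8, Sod3, Srxn1 and Nqo1. Srxn1, which rescues overoxidised peroxiredoxins, and Nqo1, a quinone reductase, are commonly read as NRF2 targets, and both had at most 3 counts in any young WT or young KO-labelled library.

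**Figure D1:**
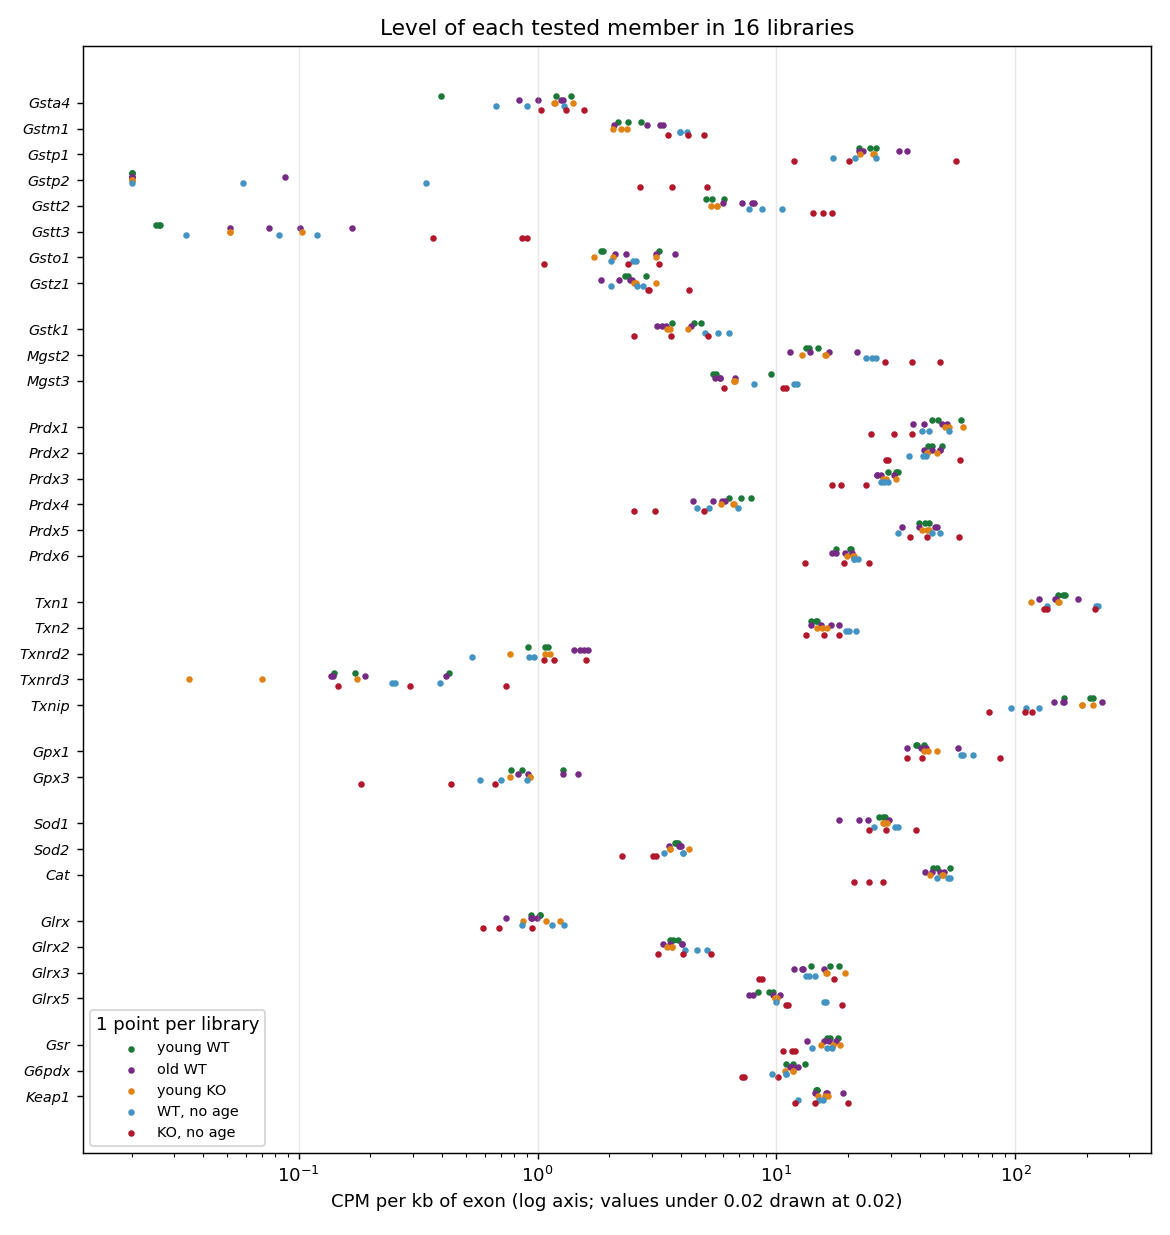
Level of each of the 34 members tested in any comparison, in CPM per kb of exon on a log axis, with 1 point per library coloured by group and values under 0.02 drawn at 0.02. Txn1 and Txnip lie farthest right, and Gstp2 and Gstt3 lie farther right in the 3 KO libraries without an age than in any other.

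Old WT was set against young WT to ask whether antioxidant transcripts of DP cells change with age. Of 31 members tested, 0 passed the threshold (adjusted p under 0.05 over all genes, edgeR's quasi-likelihood test), beside 0.253% of the 14228 genes tested. DESeq2 and limma-voom also called 0 members. At an unadjusted p under 0.05 there were 4 members, or 12.9%, beside 12.1% of all genes. Estimates were above 0 for 13 members and below 0 for 18, with a median log2 difference of -0.03 beside 0.01 for all genes. The 95% interval of the log2 difference was -0.27 to 0.14 for Cat, -0.19 to 0.19 for Prdx2, -0.20 to 0.22 for Sod2 and -0.26 to 0.13 for Prdx6, which reduces lipid peroxides.

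Gstt2 had the smallest p. Its level was 22.4, 25.1 and 21.1 CPM in young WT and 32.8, 24.8, 33.4 and 29.8 in old WT. Old replicate 2 lay inside the young range and the other 3 above it, with a log2 difference of 0.40 ± 0.12 (SE, adjusted p = 0.27). Txnrd2, the mitochondrial thioredoxin reductase, had 4.87, 4.71 and 4.03 CPM in young WT and 6.64, 7.14, 6.88 and 6.28 in old WT. All 4 old libraries were above all young ones, with a log2 difference of 0.57 ± 0.19 (adjusted p = 0.301).

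Prdx4, the peroxiredoxin of the endoplasmic reticulum, went the other way. It had 13.3, 14.9 and 16.5 CPM in young WT and 12.5, 11.4, 12.8 and 9.47 in old WT. Every old library was below every young one, by a log2 difference of -0.37 ± 0.14 (adjusted p = 0.346). Txnrd2 and Prdx4 were the only members tested whose old and young libraries did not overlap, 1 in each direction or 6.45% together, beside 9.78% of all genes without overlap (5.65% higher and 4.13% lower).

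Glrx3, a monothiol glutaredoxin that carries iron-sulfur clusters, had 69.8, 84.4 and 91.7 CPM in young WT and 79.4, 64.6, 64.0 and 59.3 in old WT. The ranges overlapped through old replicate 1 (log2 -0.29 ± 0.12, adjusted p = 0.373). Sod1, the copper and zinc dismutase of the cytosol, was at 110, 107 and 113 CPM in young WT and spread widely in old WT, at 118, 88.1, 95.6 and 72.5. Old replicate 1 was above all young libraries and the other 3 below them (log2 -0.23 ± 0.13, adjusted p = 0.476). Keap1 was at 69.1, 69.4 and 68.7 CPM in young WT and 76.3, 75.3, 89.2 and 67.9 in old WT, with only old replicate 4 under the young range (log2 0.16 ± 0.09, adjusted p = 0.512). Keap1 shares 510 exonic bases with the antisense gene Gm16754. The strand setting of the counting is not given, so reads of the shared stretch cannot be told apart. Gm16754 had a mean of 25.1 CPM in young WT and 2.31 in WT without an age, and the cause was not tested.

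By family, all 6 peroxiredoxins tested had estimates below 0 with age, from -0.37 to 0.00, and 5 of 6 cytosolic transferases had estimates above 0, up to 0.40. None of these 12 passed the threshold. Of the libraries with an age, summed markers of B cells, macrophages, dendritic cells and erythroid cells were highest in old replicate 3. Those of stroma and endothelium and of single-positive and double-negative thymocytes were not highest there. In that library 9.18% of entries did not align uniquely, against 4.46% to 5.36% in the others with an age. Summed B cell markers reached 2151 CPM there, against 442 to 497 in young WT, and macrophage markers 383 against 61.2 to 63.8. Gpx1 and Gstp1 were highest in that library of the old group, at 82.5 and 54.6 CPM, and the part of these cells in those values was not tested. B cell markers had estimates above 0 in 11 of 11 tested, 10 of them at an unadjusted p under 0.05 and 0 past the threshold, macrophage markers in 9 of 9 and dendritic markers in 8 of 9. Of all genes 12.1% had an unadjusted p under 0.05. Without old replicate 3, 0 members were called.

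**Figure D2:**
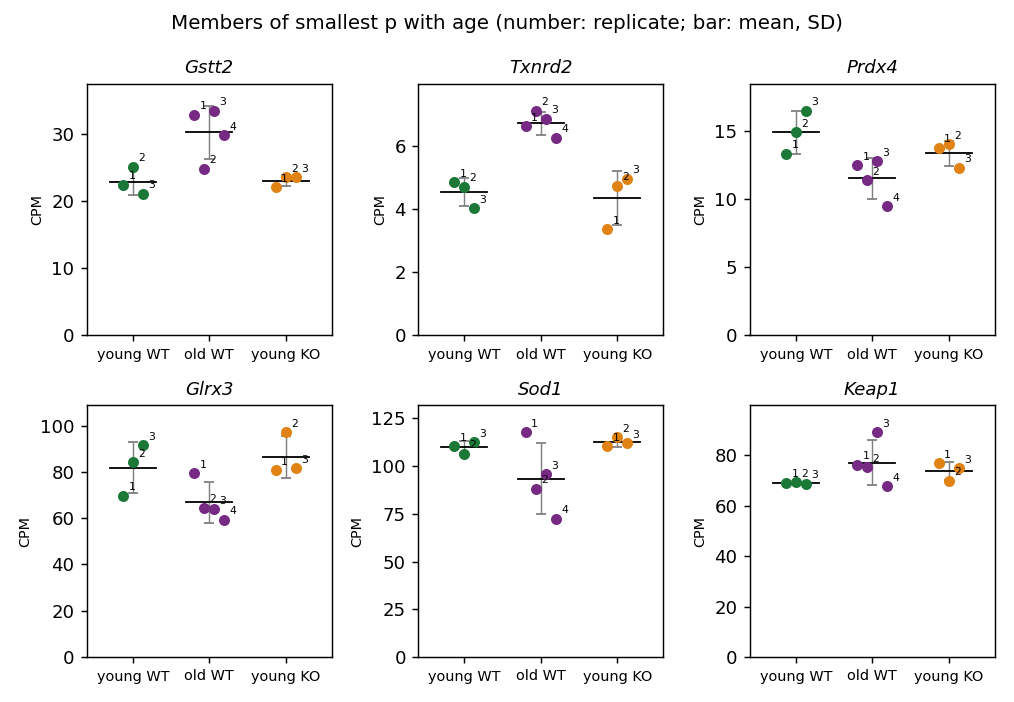
CPM per library of the 6 members of smallest p with age, in young WT, old WT and libraries labelled young KO, with replicate numbers, the mean as a line and the SD as a bar. Only Txnrd2 and Prdx4 separate all old from all young WT libraries, and none of the 6 passed the threshold.

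The libraries labelled young METTL3 KO were set against young WT, which they share with the age comparison. Of 31 members tested, 0 passed the threshold by edgeR, DESeq2 or limma-voom, and 0 reached an unadjusted p under 0.05 by edgeR. Among all genes 0% were called and 0.618% had an unadjusted p under 0.05. Estimates were above 0 for 18 members and below 0 for 13, with a median of 0.01 beside 0.00 for all genes.

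The smallest p belonged to Txn1, at 169, 159 and 166 CPM in young WT and 122, 158 and 159 in the KO-labelled libraries. KO-labelled replicate 1 was the low one, and the log2 difference was -0.17 ± 0.14 (adjusted p = 1). Prdx4 differed by -0.16 ± 0.15, Gpx1 by 0.15 ± 0.15, Glrx5 by 0.13 ± 0.13, Txn2, the mitochondrial thioredoxin, by 0.10 ± 0.10 and Gstk1 by -0.20 ± 0.20 on the log2 scale, all with an adjusted p of 1. Glrx5, which serves mitochondrial iron-sulfur assembly, and Keap1 were higher in every KO-labelled library, or 6.45% of members, beside 4.55% of all genes. In either direction 9.26% of all genes did not overlap. The intervals were narrow for abundant members: Cat lay within -0.24 to 0.19, Sod2 within -0.22 to 0.23, Prdx2 within -0.26 to 0.15 and Prdx6 within -0.13 to 0.29.

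KO was set against WT in the 6 libraries without an age, where the labels and the Mettl3 count go together. Of 34 members tested, 8 passed the threshold, 4 higher and 4 lower in KO, or 23.5% beside 53.9% of the 16432 genes tested. The share of all genes was 29.9% higher and 24% lower. At an unadjusted p under 0.05 there were 11 members (32.4%), beside 59.6% of all genes. The median log2 difference of the members was -0.14 beside 0.08 for all genes. In 6 members every KO library was above every WT one and in 6 below, or 35.3% together, beside 63.8% of all genes (34.3% above and 29.5% below). Library composition moved with genotype here. Reads in genes were 37.0% to 37.3% of entries in WT and 27.3% to 29.5% in KO, and low-quality alignments 0.698% to 0.812% and 1.19% to 1.51%. The part of these differences in the results below was not tested. The 9 members under the filter here were Gstm2, Gstm5, Gstt1, Mgst1, Gpx7, Gpx8, Sod3, Srxn1 and Nqo1. The 4 that were higher were glutathione transferases (Gstp2, Gstt3, Gstt2 and Mgst2). The 4 that were lower act on peroxide or restore glutathione (Cat, Prdx1, Prdx3 and Gsr). Gstp2 and Gstt3 could only differ upward, as the filter kept them through KO alone. The calls of Mgst2, Prdx1, Prdx3 and Gsr were lost in some fits with a library left out. A split by class was not tested.

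How often genes were called followed their level in WT. Of all tested genes under 1 CPM in WT, 74.5% were higher in KO and 0.275% lower, and of those over 100 CPM 13% were higher and 48.8% lower. Gstp2 and Gstt3 lie in the lowest class, and they passed the filter only through the KO libraries, so they could only differ upward. Gpx3 and Txnrd3 passed only through WT. Of the 7 members between 1 and 10 CPM in WT 0 were called, beside 22.1% of all genes at that level higher and 14.4% lower. Of the 7 over 100 CPM 2 were lower, and of the 17 between 10 and 100 CPM 2 were higher and 2 lower, beside 16% and 33.3% of all genes at that level.

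Catalase showed the largest decrease. Cat (ENSMUSG00000027187, chr2:103453849-103485160 of mm10, minus strand) stood at 137, 123 and 139 CPM in WT and 73.0, 63.6 and 55.3 in KO. Every KO library was below every WT one. The difference was 2.08-fold (log2 -1.05 ± 0.16, adjusted p = 0.000361), and no sequence of 50 bases in its transcripts occurs in another gene. The gene kept its direction and its call in all 6 fits with a library left out (adjusted p 0.000135 to 0.00203) and in all 8 other settings tried. In the libraries with an age, Cat was at 118 to 139 CPM in young WT, 110 to 131 in old WT and 114 to 130 in those labelled young KO, ranges that overlap.

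Prdx1 (ENSMUSG00000028691, chr4:116685544-116700822, plus strand) stood at 123, 132 and 160 CPM in WT and 94.2, 75.8 and 112 in KO. The groups did not overlap, though KO replicate 3 came close to WT replicate 1, with a log2 difference of -0.56 ± 0.18 (1.47-fold, adjusted p = 0.0208). Prdx3, the mitochondrial peroxiredoxin (ENSMUSG00000024997, chr19:60864051-60874556, minus strand), stood at 41.7, 40.3 and 43.2 CPM in WT and 27.6, 25.3 and 35.0 in KO. WT was tight and KO replicate 3 again the highest of its group (log2 -0.51 ± 0.18, 1.42-fold, adjusted p = 0.0302). Gsr, glutathione reductase (ENSMUSG00000031584, chr8:33652523-33698163, plus strand), stood at 44.6, 47.0 and 38.9 CPM in WT and 29.3, 32.1 and 32.9 in KO. All KO libraries were below all WT ones (log2 -0.47 ± 0.17, 1.38-fold, adjusted p = 0.0323). These 3 calls were less steady than that of Cat. Prdx1 lost it without WT replicate 3 (adjusted p = 0.0663), Prdx3 in 4 of 6 fits with a library left out and Gsr in 3. With sex as a covariate all 3 lost it (adjusted p = 0.225, 0.309 and 0.133). Prdx3 and Gsr also lost it with library size alone (0.0505 and 0.0831) and with the replicate block (0.0615 and 0.0894).

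The theta-class neighbours Gstt3, Gstt1 and Gstt2 lie in that order on the minus strand of chromosome 10, with 2398 bases between Gstt3 and Gstt1 and 32529 between Gstt1 and Gstt2. Gstt2 (ENSMUSG00000033318, chr10:75831114-75837424) stood at 36.2, 43.7 and 32.0 CPM in WT and 65.1, 59.3 and 70.9 in KO. All KO libraries were above all WT ones, by 1.74-fold (log2 0.80 ± 0.17, adjusted p = 0.00262). Gstt3 (ENSMUSG00000001665, chr10:75774115-75781414) had 7, 5 and 2 counts in WT and 40, 16 and 46 in KO (log2 3.14 ± 0.65, adjusted p = 0.002). It remained a low transcript in KO, at 3.30, 1.40 and 3.48 CPM. Gstt1 between them had 0, 3 and 0 counts in WT and 8, 1 and 6 in KO and was not tested. Gstt2 kept its call in all 6 fits with a library left out (adjusted p 0.00534 to 0.0228) and all 8 other settings.

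Mgst2 (ENSMUSG00000074604, chr3:51660360-51682677, plus strand) stood at 96.3, 92.6 and 87.4 CPM in WT and 179, 136 and 105 in KO. The groups did not overlap, and KO replicate 3 was the lowest of its group (log2 0.60 ± 0.19, 1.52-fold, adjusted p = 0.0188). The call was lost in 5 of 6 fits with a library left out, with adjusted p up to 0.121, and with sex as a covariate (0.409) or no filter (0.0597).

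The pi-class pair lies on the minus strand of chromosome 19, with 2299 bases between Gstp1 and Gstp2. Gstp2 (ENSMUSG00000038155, chr19:4040285-4046023) had 1, 6 and 0 counts in WT and 69, 34 and 54 in KO, or 5.70, 2.98 and 4.08 CPM. All KO libraries were above all WT ones, and the fitted difference was 26.7-fold (log2 4.74 ± 0.77, adjusted p = 0.000539). The size rests on a few WT counts: the log2 difference was 6.62 without WT replicate 2, which holds 6 of the 7 WT counts, and 4.14 without WT replicate 3. In the 10 libraries with an age a single count was seen, in old WT replicate 1. Gstp1 (ENSMUSG00000060803, chr19:4035407-4037985) stood at 40.4, 33.1 and 26.6 CPM in WT and 31.2, 18.4 and 87.3 in KO, so the 2 groups overlapped and KO replicate 3 was far above all others (log2 0.45 ± 0.49, adjusted p = 0.463). The transcripts of the pair are alike: 54.3% of the 50-base sequences of Gstp2 also occur in another gene, 49.1% in Gstp1, and the split of reads between them is uncertain.

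The reference sequence before the RefSeq start of Cat, Prdx1, Gstp1 and Gstp2 is shown. It sets the pi-class pair side by side and marks the 1 oxidant-response core found among the 4. Each comes from RefSeq's GRCm38.p6 promoters, from 250 bases before the start to the first base of an exon of the gene in GENCODE, on the gene's strand. Capitals mark a match to TGACNNNGC, the core of the antioxidant response element bound by NRF2 with small MAF proteins, on either strand. The stretches are chr2:103485161-103485403 (minus), chr4:116685349-116685543 (plus), chr19:4037986-4038162 (minus) and chr19:4042264-4042471 (minus). The last of these, for Gstp2, lies inside the span of that gene in GENCODE, which runs to 4046023.
Cat: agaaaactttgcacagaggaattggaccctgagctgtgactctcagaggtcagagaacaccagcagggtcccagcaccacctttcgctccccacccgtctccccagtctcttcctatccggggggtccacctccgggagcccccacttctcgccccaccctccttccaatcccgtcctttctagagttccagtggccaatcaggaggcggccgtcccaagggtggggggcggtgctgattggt
Prdx1: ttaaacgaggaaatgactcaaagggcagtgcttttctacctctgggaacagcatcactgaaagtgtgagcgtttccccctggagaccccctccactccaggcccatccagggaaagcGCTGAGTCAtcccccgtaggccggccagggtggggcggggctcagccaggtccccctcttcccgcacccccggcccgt
Gstp1: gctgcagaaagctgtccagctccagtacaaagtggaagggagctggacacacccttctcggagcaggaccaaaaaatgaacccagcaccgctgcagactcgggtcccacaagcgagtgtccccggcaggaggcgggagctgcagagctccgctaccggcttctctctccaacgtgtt
Gstp2: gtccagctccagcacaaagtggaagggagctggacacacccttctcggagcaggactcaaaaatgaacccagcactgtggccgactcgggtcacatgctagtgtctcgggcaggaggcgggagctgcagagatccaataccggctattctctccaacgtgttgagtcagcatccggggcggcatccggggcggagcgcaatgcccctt
Where the Gstp1 and Gstp2 stretches align, 146 of 164 columns (89.0%) were identical, and over the full 300-base windows 246 of 319 (77.1%). The Prdx1 match begins at position -133 from the start and lies on the other strand. In windows from 250 bases before to 50 after the start, 6 of the 38 members with a RefSeq entry (15.8%) held the core, beside 14.0% of 27025 genes. They were Gstm5, Mgst1, Prdx1, Sod1, Srxn1 and G6pdx, so of the 8 members called without an age Prdx1 was the 1 with a match. No entry was found for Gsr, Gsta4, Gstt2, Prdx6 and Sod3. A match is a description of letters and no evidence of binding.

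**Figure D3:**
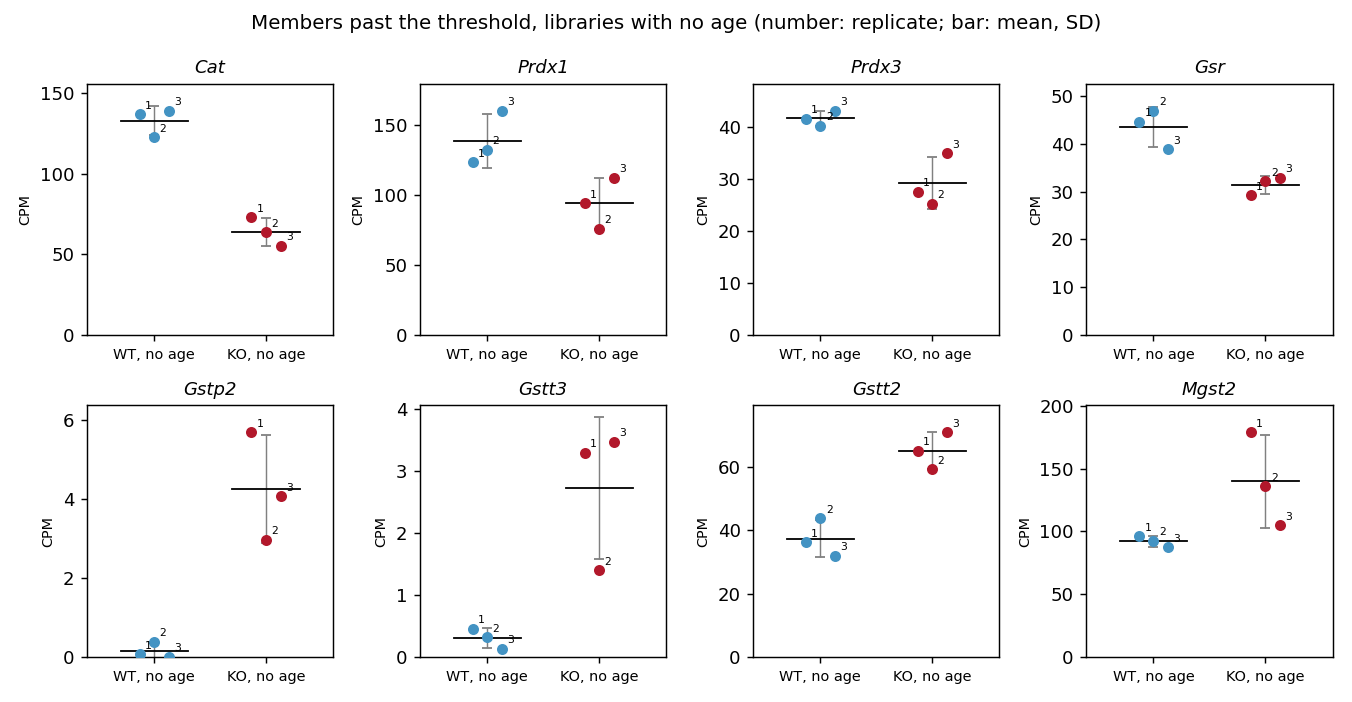
CPM per library of the 8 members past the threshold in the set without an age, in WT and KO, with replicate numbers, the mean as a line and the SD as a bar. Cat, Prdx1, Prdx3 and Gsr are lower in all 3 KO libraries, and Gstp2, Gstt3, Gstt2 and Mgst2 higher.

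Several members missed the threshold with KO replicate 3 on one side and replicates 1 and 2 on the other. Gpx1 stood at 84.9, 96.1 and 87.2 CPM in WT and 50.7, 58.7 and 124 in KO. Prdx2 stood at 129, 126 and 109 in WT and 87.8, 89.4 and 179 in KO, and Glrx3 at 66.9, 68.4 and 72.4 in WT and 43.5, 42.5 and 87.1 in KO. In each of these 3 genes, replicates 1 and 2 lay below all WT libraries and replicate 3 above them. The differences were -0.20 ± 0.28, -0.03 ± 0.25 and -0.26 ± 0.25 on the log2 scale, with adjusted p of 0.57, 0.927 and 0.404. Without KO replicate 3, 17 of 35 members tested were called, 4 higher and 13 lower, beside 55.4% of all genes. The 13 were Cat, Gsr, G6pdx, Gpx1, Gstk1, Glrx3, Prdx1, Prdx2, Prdx3, Prdx4, Prdx6, Txn1 and Txn2. Without WT replicate 1, WT replicate 2 or KO replicate 1, 5 members were called, beside 44.6%, 45.3% and 48% of all genes. Without WT replicate 3 there were 6 beside 42.8%, and without KO replicate 2 there were 9 beside 55.2%. With no filter on low counts 15 of 42 members were called (35.7%), beside 32.5% of all genes, so the members' share then lay near the background.

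With sex as a covariate the KO difference rests on KO replicate 3 alone, set against the 3 male WT libraries. In that fit 8 members were called but 6 were higher (Gpx1, Gstp1, Gstp2, Gstt2, Gstt3 and Prdx2) and 2 lower (Cat and Sod2). Sod2, the manganese dismutase of mitochondria, stood at 40.5, 40.5 and 34.0 CPM in WT and 31.3, 30.4 and 22.5 in KO, with replicate 3 the lowest (log2 -0.45 ± 0.19, adjusted p = 0.0617). Txn2 stood at 90.5, 84.8 and 81.9 CPM in WT and 55.7, 66.3 and 76.8 in KO, without overlap (log2 -0.37 ± 0.16, adjusted p = 0.0734).

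**Figure D4:**
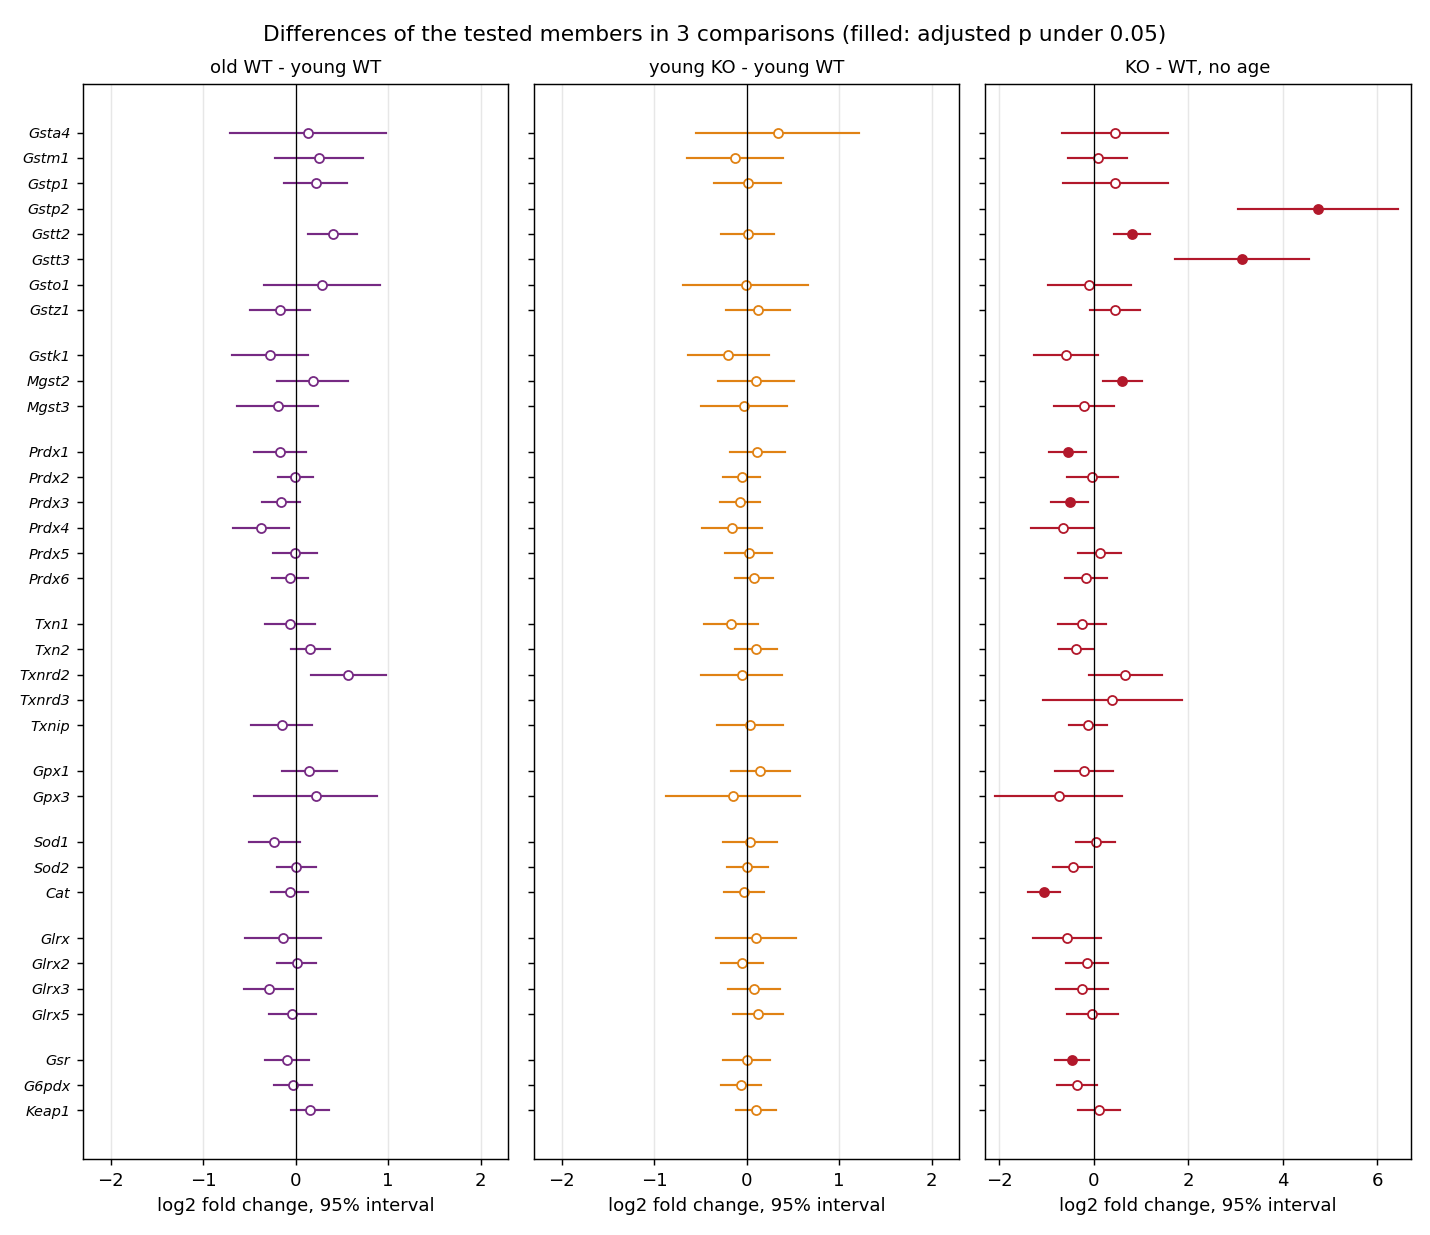
Log2 fold change with its 95% interval for the members tested in each comparison, old against young WT, labelled young KO against young WT and KO against WT without an age, with filled points for an adjusted p under 0.05. No point is filled in the first 2 panels, whose axes run over a narrower range than the third, where 8 are.

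Markers of other cells moved in the same 6 libraries. The calls below stand beside 29.9% of all genes tested higher and 24% lower in KO. Among all genes under 1 CPM in WT, 74.5% were higher. Macrophage markers summed to 51.4 to 67.9 CPM in WT and 157 to 218 in KO, with 5 of 10 tested higher, and Apoe alone went from a mean of 37.8 to 150. B cell markers summed to 536 to 635 and 745 to 1166 CPM, with 8 of 10 higher. Of 11 dendritic markers 8 were higher and 1 lower. Their sum was 1308 to 1744 CPM in WT and 724 to 746 in KO, most of it Ccr9, which DP cells also express. Of 9 markers of stroma and endothelium 4 were higher and 1 lower, with sums of 171 to 201 CPM in WT and 147 to 169 in KO. Cd14, Timd4, Clec9a, Dcn and Krt5 were at 0 in every WT library and none of the 5 was at 0 throughout KO. A gene at 0 in WT could only differ upward. Of 22 proliferation genes 14 were lower and 0 higher, with sums of 5078 to 5285 in WT and 2841 to 3286 in KO. The part of these cells in the calls among the members was not tested.

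Summed over a family, peroxiredoxins with Srxn1 came to 512, 510 and 494 CPM in WT and 357, 380 and 578 in KO. Superoxide dismutases with Cat came to 301, 291 and 275 in WT and 201, 208 and 231 in KO, below WT in all 3 libraries. Cat alone had a mean of 133 CPM in WT and 64.0 in KO. Sod1 had means of 118 and 121 and Sod2 of 38.3 and 28.1, and neither dismutase passed the threshold. The transferases of membranes and mitochondria came to 119, 114 and 104 in WT and 189, 153 and 125 in KO, above WT in all 3. Most of that sum was Mgst2, with a mean of 92.1 CPM in WT and 140 in KO. The 2 other members tested there, Gstk1 and Mgst3, had estimates below 0 (log2 -0.59 and -0.22), and neither passed the threshold. The sum of the cytosolic transferases was also above WT, at 104, 103 and 79.7 in WT and 137, 111 and 197 in KO. Glutathione peroxidases and glutaredoxins straddled WT, with replicates 1 and 2 below and replicate 3 above. In the libraries with an age, old WT and the libraries labelled young KO each overlapped young WT in all 8 families.

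**Figure D5:**
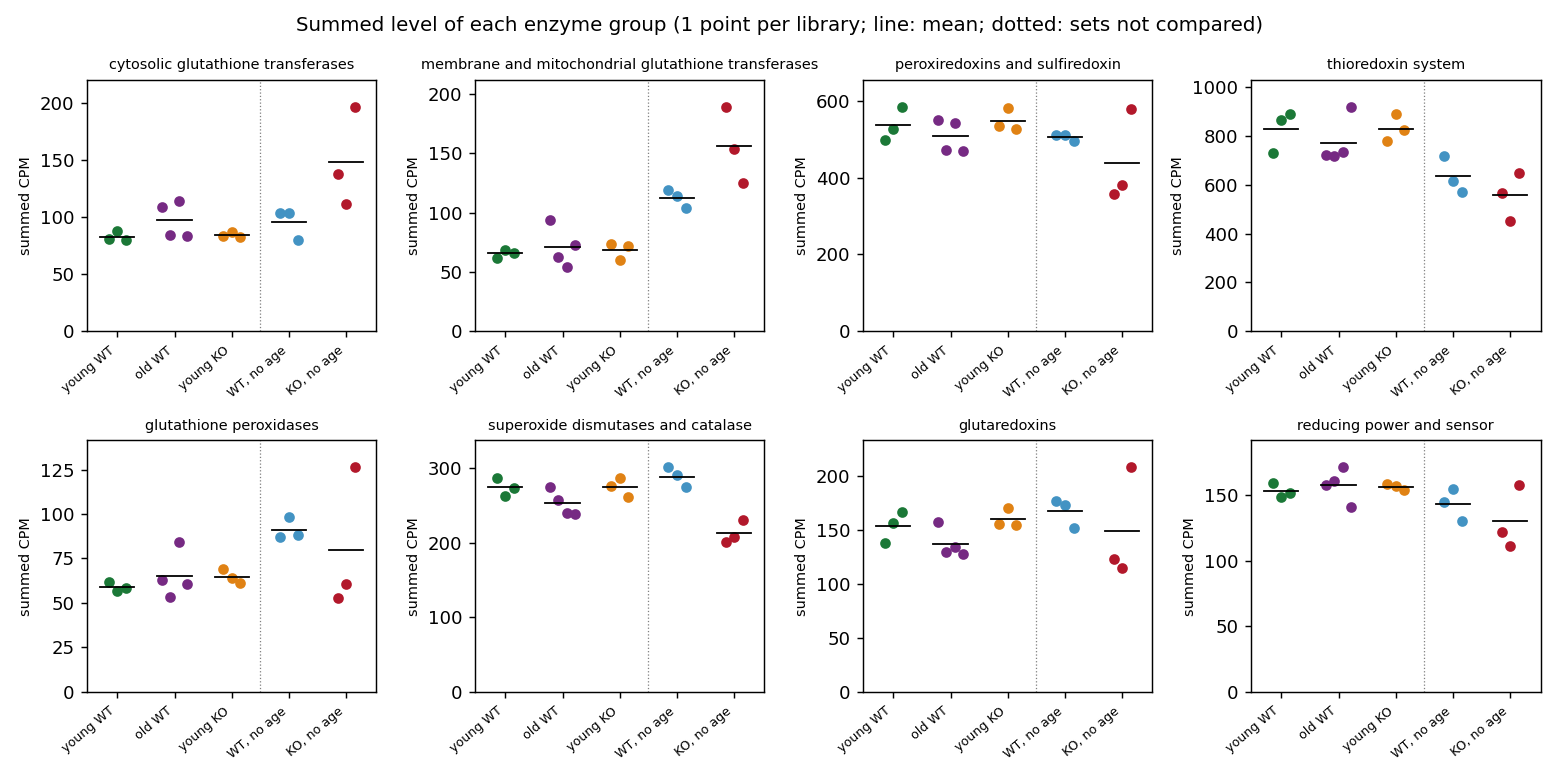
Summed CPM of the members of each of 8 enzyme groups, with 1 point per library, a line at each group's mean and a dotted line between the sets, which are not compared. The sum of dismutases with catalase lies lower and both transferase groups higher in the 3 KO libraries without an age. In the sum with catalase, Cat alone passed the threshold. KO replicate 3 lies above the 5 other libraries of that set in the peroxiredoxin, peroxidase and glutaredoxin panels. In the transferase group of membranes and mitochondria most of the sum is Mgst2.

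Whether the KO difference was unequal between the sets was tested as an interaction over 12 libraries. Mettl3 itself had a KO difference of -0.002 ± 0.085 in the young set and -0.58 ± 0.18 without an age. Its interaction in that test was -0.41 ± 0.19 (adjusted p = 0.106) and missed the threshold. As given above, the Mettl3 count does not bear out the young KO label, though it need not fall when only some exons are lost. Of 34 members tested, 3 passed (8.82%), beside 36.9% of all genes, and 5 (14.7%) had an unadjusted p under 0.05, beside 47.1%. The median over all genes was 0.14 and over the members 0.04. The joint fit scales the 12 libraries together, so its value need not equal the gap between the separate estimates. Cat differed by -0.85 ± 0.17 (log2 difference of the 2 KO differences, adjusted p = 0.00135), with a KO difference of -0.03 ± 0.10 in the young set and -1.05 ± 0.16 without an age. Gstt2 differed by 0.96 ± 0.20 (adjusted p = 0.00178), from 0.01 ± 0.13 to 0.80 ± 0.17. Mgst2 differed by 0.68 ± 0.23 (adjusted p = 0.0325), from 0.10 ± 0.19 to 0.60 ± 0.19, and its call was lost in 11 of 12 fits with a library left out. Over these 12 fits the interaction ran from -1.17 to -0.87 for Cat, 0.65 to 1.06 for Gstt2 and 0.27 to 0.66 for Mgst2. The full-fit values of Cat and Mgst2 lay just outside their ranges, so the sizes depend on the libraries and genes kept. Prdx1 (-0.51 ± 0.21, adjusted p = 0.0656), Txnrd2 (0.88 ± 0.39, adjusted p = 0.0908) and Txnrd3 (1.93 ± 1.00, adjusted p = 0.144) missed the threshold. Prdx1 passed it in 10 of 12 fits with a library left out (adjusted p 0.00187 to 0.119 over the 12), with library size alone (0.0287) and without a filter (0.000865). No difference is given for Gstp2, which had no count in either young group. The sets also differ in the share of reads not aligned, 50.5% to 52.2% without an age and 0.577% to 0.826% with one, so set and read handling cannot be told apart.

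Other genes of the pathway, which supply glutathione, relay NRF2 or make NADPH, form a list of 50. With age 0 of 49 tested passed the threshold by edgeR (8, or 16.3%, at an unadjusted p under 0.05, beside 12.1% of all genes). The smallest p were those of Nfe2l2, which codes for NRF2 (log2 0.49 ± 0.10, adjusted p = 0.0942), Sesn2 (0.69 ± 0.19, adjusted p = 0.223) and Idh1 (0.43 ± 0.13, adjusted p = 0.27), all without overlap of old and young libraries. In the list 18.4% of genes tested did not overlap, 7 higher and 2 lower, beside 9.78% of all genes. In the libraries labelled young KO 0 of 49 passed (0 at an unadjusted p under 0.05).

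Without an age 19 of 50 passed, 5 higher and 14 lower in KO (38%, median log2 difference -0.07), beside the 53.9% of all genes. The 14 lower included Slc7a11, the cystine importer that feeds glutathione synthesis (-0.98 ± 0.18, adjusted p = 0.00102), Txnrd1, the cytosolic thioredoxin reductase (-1.01 ± 0.16, adjusted p = 0.000445), and Bach1, a repressor of NRF2 targets (-1.68 ± 0.25, adjusted p = 0.000364). The others that fell, on the log2 scale, were Sesn3 (-1.28), Oxr1 (-1.05), Hmox2 (-1.04), Nfe2l1 (-0.89), Abcc4 (-0.78), Idh1 (-0.73), Cul3 (-0.60), Tmx1 (-0.57), Sqstm1 (-0.57), Tkt (-0.52) and Idh2 (-0.48). The 5 higher were Ggt1, which breaks down glutathione outside the cell (2.90 ± 0.43, adjusted p = 0.000344), Blvrb (1.13), Ccs (1.00), Hagh (0.78) and Sesn1 (0.43). In the interaction 13 of 50 passed, 4 higher and 9 lower (26%), beside 36.9% of all genes.

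The peroxidases GPX1 and GPX3 and the thioredoxin reductases contain selenocysteine, and 16 further genes make or are selenoproteins. With age 0 of 15 tested passed by edgeR (3, or 20%, at an unadjusted p under 0.05, beside 12.1% of all genes). The smallest p were those of Sephs2 (log2 -0.23 ± 0.08, adjusted p = 0.343), Selenon (0.86 ± 0.35, adjusted p = 0.371) and Selenof (-0.28 ± 0.12, adjusted p = 0.372). In the libraries labelled young KO 0 of 15 passed (0 at an unadjusted p under 0.05). Without an age 8 of 16 passed, 2 higher and 6 lower (50%, median -0.33), a share near the 53.9% of all genes. Selenop, the secreted carrier of selenium, fell most (-2.15 ± 0.26, adjusted p = 0.000134), followed by Selenot and Selenof (-1.17 ± 0.20 and -1.04 ± 0.14, adjusted p = 0.00064 and 0.000245). Sephs1 (-0.68 ± 0.16, adjusted p = 0.00456), Selenoi (-0.68 ± 0.22, adjusted p = 0.0219) and Selenoh (-0.52 ± 0.19, adjusted p = 0.0342) also fell. Selenon (2.03 ± 0.32, adjusted p = 0.000435) and Selenow (0.89 ± 0.23, adjusted p = 0.00683) were higher.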

How the data were processed

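RNA of sorted DP thymocytes was sequenced in 16 libraries. The deposited files hold raw read counts per gene as the authors made them. The submitters' processing notes name HISAT2 2.0.5 and the build mm10. Which program counted reads, on which annotation and with which strand setting, is not given in the sources used here.

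Counts were fitted with edgeR 4.0.16 in R 4.3.3 (robust quasi-likelihood test, genes kept by filterByExpr with a minimum count of 10, TMM scaling). P-values were two-sided, adjusted by Benjamini-Hochberg over all genes tested, with a threshold of 0.05. Age and young KO came from 1 fit of 10 libraries, KO without an age from 6, and the interaction from 12 on the 54113 identifiers in both sets. Intervals are at 95% and cover the spread between libraries. DESeq2 1.42.0, limma-voom (limma 3.58.1) and the other settings named in the closing section were alternatives. Lengths and coordinates came from GENCODE for mm10, sequences from RefSeq GRCm38.p6 (38 of 43 symbols matched), aligned with Biopython 1.88. Tables and figures used Python 3.11.15, pandas 2.3.3 and matplotlib 3.10.9, and the procedure was tested on simulated data.

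The members and lists were chosen with earlier results of these data known. Named with full values were members past the threshold, the 6 of smallest p in each comparison and the 6 highest per kb in each set, while called genes of the pathway lists without an age, and up to 3 of smallest p with age, are named with their log2 difference. Gpx1, Prdx2, Glrx3, Gstp1, Gstt1, Sod2 and Txn2 without an age, and the partners on the other strand, were named after their values were seen. No library was left out of the comparisons as given.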

Additional observations from a re-analysis of the deposited data

Results flagged for a closer look

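In the 4 old WT libraries each of the 43 members was checked for a library far from the others, and 3 were found. Chance flags about 1 in 20 groups of continuous values. A gene counted in only 1 of the 4 libraries is always flagged, so Gstp2 and Sod3 were flagged by construction. Txnip was at 719 CPM in old WT replicate 4 and at 451 to 497 in the other 3, while young WT spanned 500 to 658. The antisense gene Gm15441 shares 606 exonic bases with Txnip and ranged from 151 to 304 CPM in old WT. Its mean in WT without an age was 0.582 CPM. Summed proliferation genes were lowest in old WT replicate 4, at 4156 CPM. Gstp2 reached 0.0977 CPM in old WT replicate 1, from a single count, and Sod3 0.215 CPM in old WT replicate 3, from 2 counts, with 0 in the others.

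The KO difference was unequal between the set without an age and the young set for 3 members, by an interaction test (edgeR's quasi-likelihood test). The log2 difference of the differences was -0.85 for Cat, 0.96 for Gstt2 and 0.68 for Mgst2. In the young set the Mettl3 count did not bear out the KO label, though a count over the whole gene need not fall when only some exons are lost.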

How the results depend on the processing

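With age and in the libraries labelled young KO, 0 members were called under each of the 9 other settings and with each of the 10 libraries left out. Over all genes the age count of 36 became 153 with DESeq2, 85 without a filter, 61 with the replicate block, 11 with the groups compared alone, and 8 to 59 with a library left out (13, 10 and 8 without young WT replicates 1, 2 and 3, 21 without young KO replicate 1 and 59 without old WT replicate 4). For KO without an age, 8 members (23.5%, beside 53.9% of all genes) became 15 without a filter on low counts (35.7%, beside 32.5%) and 5 to 17 with a library left out, the highest without KO replicate 3. For the interaction, 3 became 2 to 14 with a library left out, again highest without KO replicate 3 (6 without KO replicate 2 or young KO replicate 3, and 5 without young WT replicate 1). Replicate numbers share only a number, since same-numbered libraries correlated between -0.23 and 0.09 and 1 of 9 correlated best with its own number. With the replicate block 6 members were called without an age and 2 in the interaction, and 0 with age or young KO. Prdx3 and Gsr lost their calls with library size alone (adjusted p = 0.0505 and 0.0831) and the block (0.0615 and 0.0894), and Mgst2 without a filter (0.0597). With sex as a covariate Mgst2, Prdx1, Prdx3 and Gsr lost theirs (0.409, 0.225, 0.309 and 0.133). The cause was not tested. Members at a few counts, such as Gstt1, Nqo1 and Srxn1, were left out by the filter, and counts this low limit what a test could show.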

Other observations

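Members left out by the filter on low counts still gave a few counts in KO without an age. Gstm5 had 0 counts in each WT library and 5, 9 and 7 in KO. Nqo1 had 0, 5 and 1 counts in WT and 25, 5 and 2 in KO, with replicate 1 the high one. Gstm2 had 0 in each WT library and 0, 1 and 14 in KO, and Srxn1 0 in each WT library and 0, 8 and 7 in KO. Gstt1 had 19 counts in old WT replicate 2, against 0 to 3 in the other libraries with an age.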
